A study of Mus musculus with 8 samples.

Results

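The genes of the platelet-derived growth factor (PDGF) system, 2 receptors and 4 ligands, were followed in primary mouse hepatic stellate cells, liver pericytes that store vitamin A and turn into matrix-producing myofibroblasts upon injury or culture. All 6 genes, Pdgfra, Pdgfrb, Pdgfa, Pdgfb, Pdgfc and Pdgfd, were taken by symbol from the platform's probe table, out of 22180 genes measured, and each had 1 probe set. In RefSeq's annotation of GRCm38.p6, Pdgfra lies at chr5:75151322-75198206, Pdgfa at chr5:138976014-139000792, Pdgfb at chr15:79995865-80024614, Pdgfc at chr3:81036416-81214040 and Pdgfd at chr9:6168363-6534284, while Pdgfrb lies on chromosome 18. Transcripts were measured with 8 Affymetrix arrays, 2 for each of 4 groups, all from BALB/c mice, an inbred strain. Cultured cells were quiescent cells of healthy livers kept on plastic for 10 days. Cells activated in vivo came from fibrotic mice given carbon tetrachloride (CCl4), a hepatotoxin, for 2 weeks or for 4 weeks and were taken without seeding. Quiescent cells came from healthy livers and were taken at 0 hours, also without seeding. The labels' protocols name 2.5 mM valproic acid after seeding for every sample, whereas no title or treatment label does, so that an exposure of the cultured cells to this histone deacetylase inhibitor cannot be told apart from culture. The labels used here do not give the CCl4 dose, the age or sex of the mice, or how many animals were pooled for an array.

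PDGF ligands are secreted as disulphide-linked dimers that bring a pair of receptor chains together, upon which the chains phosphorylate each other and recruit adaptors of the RAS-ERK and phosphoinositide 3-kinase routes. The alpha receptor, encoded by Pdgfra, binds the A, B and C chains, and the beta receptor, encoded by Pdgfrb, binds chiefly the B and D chains. PDGF acting through the beta receptor is known as a strong mitogen and chemoattractant for stellate cells, and PDGF-B of endothelial cells and platelets is known to recruit pericytes. The A and B chains are cut inside the cell by furin-like convertases, whereas PDGF-C and PDGF-D are released with an inhibitory CUB domain that outside proteases remove.

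Levels are log2 values from robust multi-array averaging (RMA), so a difference of 1 is a doubling of the signal, and levels of different genes are not set against each other. Each test is limma's moderated test in a single fit of all arrays and genes, with Benjamini-Hochberg adjustment over the 22180 genes, and a call means an adjusted p under 0.05. Changes are log2 fold changes ± standard error (SE), group levels are mean ± SD (n = 2), and intervals are 95% intervals of the fit. Nothing in the labels ties the replicate arrays to separate mice or cultures, and p-values therefore reflect the spread between these arrays alone, which may be technical. The comparisons with quiescent cells share their quiescent arrays. As a guide to background, 1394 olfactory and vomeronasal receptor genes, which the liver is not known to use, had a 95th percentile of 4.75 log2 units.

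Stellate cell markers were present, and so were those of other liver cells. Of 13 stellate markers, 13 stood above the background guide in 2-week, 4-week and quiescent cells and 10 in cultured cells. Their summed signal (log2 of the sum) was 13.06 to 13.16 in culture, 14.50 to 14.63 after CCl4 and 15.11 to 15.15 in quiescent cells. In culture 12 of the 13 were lower than in quiescent cells, as were 10.3% of all genes. After CCl4, 6 of the 13 were lower at 2 weeks and 8 at 4 weeks, beside 2.43% and 4.67% of all genes, and 0 were higher. The summed signal of 14 sinusoidal endothelial markers was 9.30 to 9.72 in culture, 11.64 to 11.95 at 2 weeks, 11.08 to 11.40 at 4 weeks and 13.14 to 13.90 in quiescent cells. That of 12 hepatocyte markers was 8.70 to 8.89 in culture, 12.55 to 13.19 at 2 weeks, 11.24 to 11.58 at 4 weeks and 13.63 to 14.44 in quiescent cells. That of 11 Kupffer cell and macrophage markers was 10.10 to 10.39 in culture, 11.32 to 11.59 at 2 weeks, 9.78 to 9.81 at 4 weeks and 11.39 to 11.76 in quiescent cells. Of the quiescent arrays, replicate 1 had the higher endothelial and hepatocyte sums (13.90 and 14.44). Replicate 2 had the higher Kupffer cell and macrophage sum (11.76). Of 8 cholangiocyte markers 3, and of 9 lymphocyte markers 2, reached the background guide. Of 9 monocyte and neutrophil markers, 0 were higher and 4 lower in culture than in quiescent cells, and 1 was higher and 0 lower at each CCl4 time. Over all genes, 12.9% were higher and 10.3% lower in culture, 2.34% and 2.43% at 2 weeks, and 4.04% and 4.67% at 4 weeks. No marker was at 0 on this scale, but background genes had a median of 3.22, so that does not mean each marker was detected. The part of these cell types in the differences below was not tested. In such preparations fewer cells of a type and less RNA per cell cannot be told apart.

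**Figure D1:**
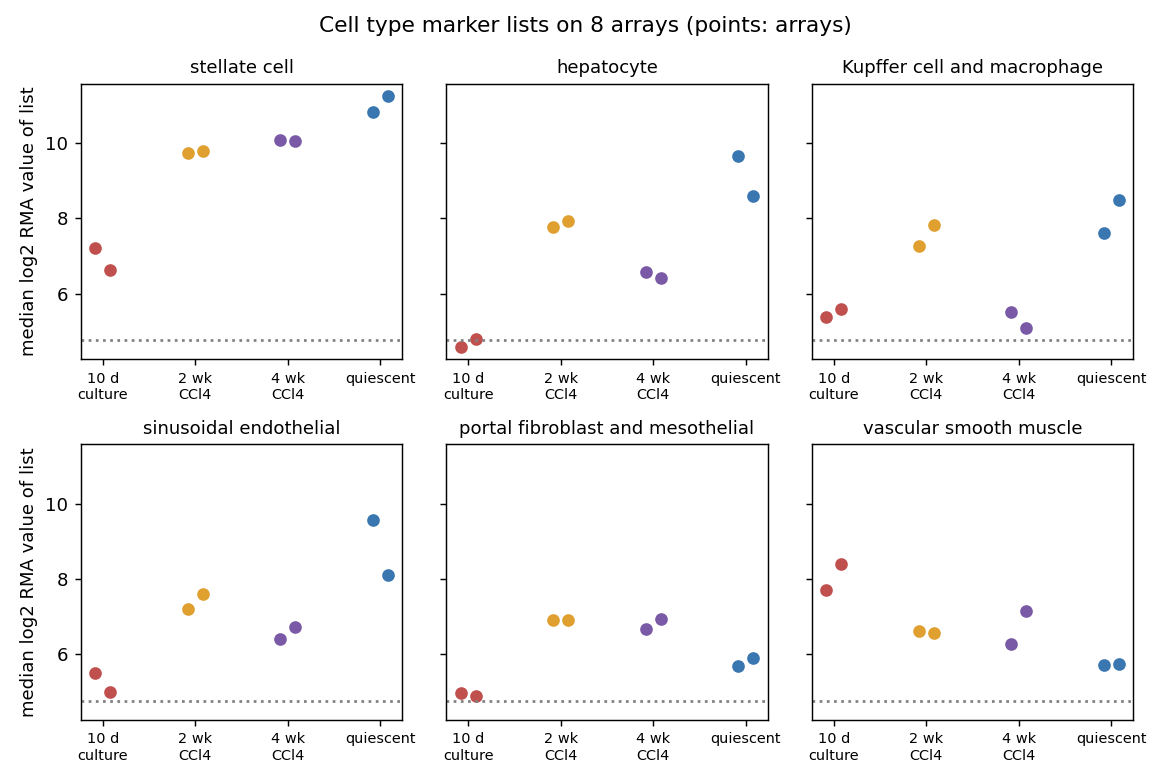
Median log2 RMA value of 6 lists of cell type markers on each of the 8 arrays, with 2 points per group and the dotted line at the background guide of 4.75. Both cultured arrays lie below all others in the stellate, hepatocyte and sinusoidal endothelial lists, and both quiescent arrays lie highest in these 3 lists.

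The sequences before the start sites of 3 members are shown because their transcripts behaved differently: Pdgfra was lower in culture, Pdgfd was lower after 4 weeks of CCl4, and Pdgfc was called in no comparison. Each is the RefSeq window of 250 bases before to 50 bases after a start site of the gene in the C57BL/6J reference (GRCm38.p6), which may differ from BALB/c. For Pdgfra and Pdgfd this start site lies inside the annotated span. The Pdgfra window lies at chr5:75152001-75152300, the Pdgfd window at chr9:6168236-6168535 and the Pdgfc window at chr3:81036166-81036465, all on the plus strand. Capitals mark matches, on either strand, to GGAATG (the site read by the TEAD partners of YAP), TGANTCA (AP-1), GGGCGG (the GC box of SP1) or TATAAA (the TATA box), and no match overlapped another.
Pdgfra: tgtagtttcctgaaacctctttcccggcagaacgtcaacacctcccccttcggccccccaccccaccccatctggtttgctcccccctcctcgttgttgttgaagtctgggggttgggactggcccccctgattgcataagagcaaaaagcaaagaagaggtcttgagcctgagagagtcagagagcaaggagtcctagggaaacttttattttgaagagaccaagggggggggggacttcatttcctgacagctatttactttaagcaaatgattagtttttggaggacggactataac
Pdgfd: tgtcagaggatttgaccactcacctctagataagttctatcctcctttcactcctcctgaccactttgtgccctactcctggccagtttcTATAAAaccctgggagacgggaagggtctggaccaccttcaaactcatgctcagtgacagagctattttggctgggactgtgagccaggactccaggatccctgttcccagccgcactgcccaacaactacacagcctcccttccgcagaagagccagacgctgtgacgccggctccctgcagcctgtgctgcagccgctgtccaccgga
Pdgfc: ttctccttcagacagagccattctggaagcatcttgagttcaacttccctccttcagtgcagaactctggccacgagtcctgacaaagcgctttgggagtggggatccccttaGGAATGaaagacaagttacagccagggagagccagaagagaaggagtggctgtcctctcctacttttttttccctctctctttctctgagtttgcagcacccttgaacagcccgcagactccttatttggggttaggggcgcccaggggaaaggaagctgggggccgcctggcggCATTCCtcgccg
The Pdgfc window held GGAATG once on each strand, at positions -137 and 38 from the start site, letters that 14.7% of all 32817 RefSeq windows hold. The Pdgfd window held TATAAA at position -160 from the start site, as 13.6% of windows do anywhere in their length. The Pdgfra window held none of the 4 motifs. TGANTCA (7.81% of windows) and GGGCGG (35.6%) were in none of the 3 windows. GC content was 51.0% in the Pdgfra window, 56.7% in that of Pdgfd and 55.0% in that of Pdgfc, with a median of 52.7% over all windows. These matches describe the letters only.

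Pdgfra, the alpha receptor, was lower in cultured cells than in any other group. It stood at 7.35 and 6.46 in cultured cells, at 10.18 and 10.57 after 2 weeks of CCl4, at 10.90 and 10.46 after 4 weeks, and at 10.77 and 10.57 in quiescent cells. The lower of the 6 arrays of unseeded cells lay 2.82 above the higher of the cultured ones. Pdgfra fell by 3.76 ± 0.29 in culture against quiescent cells, 13.6-fold (adjusted p = 3.14e-05). Against the mean of both CCl4 times it was -3.62 ± 0.25 in culture, 12.3-fold lower (adjusted p = 1.8e-05). Both calls were kept with any 1 array left out, with changes of -4.21 to -3.31 and of -4.07 to -3.17. After CCl4 it was not called, at -0.30 ± 0.29 at 2 weeks (interval -0.95 to 0.36) and 0.01 ± 0.29 at 4 weeks (interval -0.65 to 0.67). The order of group means was 4-week, quiescent, 2-week and cultured cells, and among the first 3 the arrays of neighbouring groups overlapped or touched and no difference was called. The stellate marker list moved with Pdgfra in culture, with a median member at -4.64 against quiescent cells and at -0.75 and -0.68 after 2 and 4 weeks of CCl4, beside a median of all genes within 0.01 of 0. Not every stellate gene did so: desmin (Des), the intermediate filament of stellate cells, stood at 9.96 and 9.87 in culture, against 9.67 and 9.83 in quiescent cells.

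Pdgfrb, the beta receptor, was higher after CCl4 and not in culture. It stood at 9.62 and 9.74 in cultured cells, 10.80 and 10.89 at 2 weeks, 11.34 and 11.08 at 4 weeks, and 9.63 and 10.24 in quiescent cells. The 4 CCl4 arrays lay above all other arrays, whereas the cultured and quiescent arrays overlapped. Pdgfrb rose by 1.28 ± 0.20 at 4 weeks, 2.42-fold (adjusted p = 0.00623), and by 0.91 ± 0.20 at 2 weeks, 1.88-fold (adjusted p = 0.0409). In culture it was not called against quiescent cells (-0.25 ± 0.20, interval -0.72 to 0.21, adjusted p = 0.468). Set directly against the mean of both CCl4 times, cultured cells were lower by 2.54-fold (-1.35 ± 0.18, adjusted p = 0.000739). The difference of 0.37 ± 0.20 between 4 and 2 weeks was not called (interval -0.10 to 0.83, adjusted p = 0.732). The 4-week call ended without 4-week replicate 1 (1.15, adjusted p = 0.0692). The 2-week call stood only without quiescent replicate 2 (1.21, adjusted p = 0.00574) and ended when any of the other 7 arrays was left out (adjusted p 0.0706 to 0.182), with a change of 0.61 without quiescent replicate 1.

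Genes listed as markers of other mesenchymal cells moved as well. These lists cannot tell such cells apart from stellate cells that became myofibroblasts. Of 12 portal fibroblast and mesothelial markers, 6 were higher at 2 weeks and 5 at 4 weeks than in quiescent cells, and 0 were lower. In culture 1 was higher and 6 were lower. Over all genes, 2.34% were higher at 2 weeks and 4.04% at 4 weeks, with 2.43% and 4.67% lower. In culture 12.9% of all genes were higher and 10.3% lower. Their summed signal was 10.49 to 10.68 in culture, 12.29 to 12.49 at 2 weeks, 12.23 to 12.34 at 4 weeks and 10.96 to 11.31 in quiescent cells. The largest term of the sum was Fbln2 in culture (10.1 and 10.05), where Dpt stood at 3.95 and 3.86. Elsewhere it was Dpt, at 11.77 and 11.96 at 2 weeks, 11.84 and 11.73 at 4 weeks, and 10.36 and 10.82 in quiescent cells. The sums thus rested on different genes of this list. Of its mesothelial genes, Wt1 stood at 6.17 and 5.84 in culture, 8.92 and 9.28 at 2 weeks, 8.95 and 8.78 at 4 weeks, and 6.98 and 7.66 in quiescent cells, while over all arrays Upk3b ran from 4.99 to 5.55, Msln from 4.54 to 4.88 and Upk1b from 4.03 to 4.50. Of 9 vascular smooth muscle markers, 5 were higher and 3 lower in culture, 4 and 2 at 2 weeks, and 4 and 1 at 4 weeks. Their summed signal was 13.03 to 13.16 in culture, 11.24 to 11.64 at 2 weeks, 11.05 to 11.15 at 4 weeks and 10.90 to 11.22 in quiescent cells. The largest term of that sum was Cnn1 in culture (12.16 and 12.02). After CCl4 it was Itga8 (10.62 and 11.24 at 2 weeks, 10.69 and 10.06 at 4 weeks). Itga8 stood at 7.11 and 7.03 in culture and at 9.64 and 10.39 in quiescent cells. Cnn1 stood at 4.35 and 4.71 in quiescent cells, so members of this list moved in opposite directions in culture. The part of such mesenchymal cells in the rise of Pdgfrb was not tested.

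**Figure D2:**
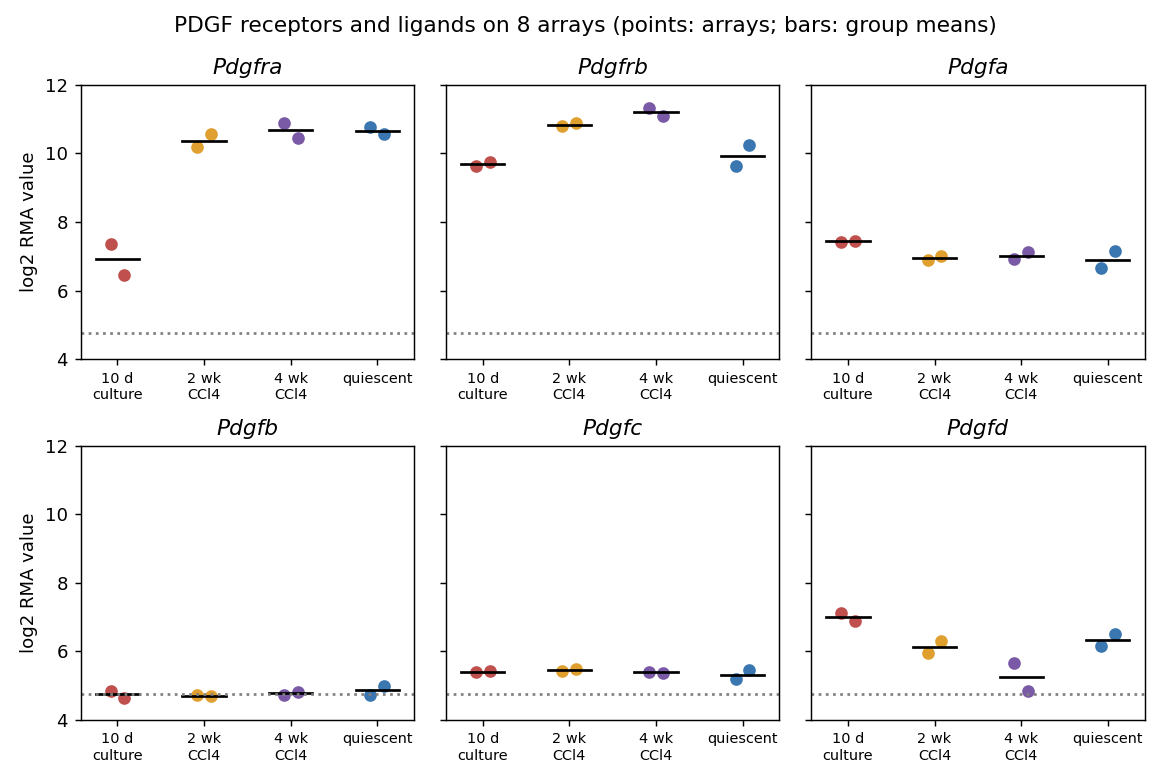
Log2 RMA values of the 6 PDGF genes on the 8 arrays, by group, with points for arrays, bars for group means and the dotted line at the background guide of 4.75. Pdgfra is low on both cultured arrays (7.35 and 6.46), Pdgfrb is high on the 4 CCl4 arrays (10.80 to 11.34), and Pdgfb lies along the guide on every array.

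Among the ligands, Pdgfd, whose product signals chiefly through the beta receptor, varied most between groups. It stood at 7.11 and 6.87 in cultured cells, 5.96 and 6.29 at 2 weeks of CCl4, 5.67 and 4.84 at 4 weeks, and 6.15 and 6.51 in quiescent cells. Both cultured arrays lay above and both 4-week arrays below all others, and the 2-week and quiescent arrays overlapped. Pdgfd fell by 1.07 ± 0.27 at 4 weeks against quiescent cells, 2.1-fold (adjusted p = 0.0428). This call stood without 4-week replicate 1 (-1.49, adjusted p = 0.0238) and ended when any of the other 7 arrays was left out (adjusted p 0.0574 to 0.229, with a change of -0.66 without 4-week replicate 2). At 2 weeks it was not called (-0.21 ± 0.27, interval -0.82 to 0.41), nor at 4 against 2 weeks (-0.86 ± 0.27, unadjusted p = 0.0111, adjusted p = 0.392). In culture, 0.66 ± 0.27 against quiescent cells was not called (adjusted p = 0.124). Cultured cells were 2.46-fold higher than the mean of both CCl4 times (1.30 ± 0.23, adjusted p = 0.00402), a call kept with any 1 array left out (1.09 to 1.51, adjusted p up to 0.0462). Set against CCl4 cells, cultured cells thus had more Pdgfd and less Pdgfrb, the gene of its receptor.

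Pdgfa, which encodes the A chain that signals through the alpha receptor, had its highest values in culture, where Pdgfra was low. It stood at 7.43 and 7.45 in cultured cells, 6.89 and 7.0 at 2 weeks, 6.91 and 7.13 at 4 weeks, and 6.66 and 7.14 in quiescent cells. The cultured arrays lay above the other 6, by 0.29 over the next array, but the quiescent pair lay as far apart as 6.66 and 7.14. The difference of 0.54 ± 0.18 between culture and quiescent cells was 1.45-fold and just missed the threshold (interval 0.14 to 0.95, adjusted p = 0.0601), and so did 0.46 ± 0.15 against CCl4 (adjusted p = 0.0705). With each array re-centred on its median, both were called (0.63, adjusted p = 0.0256, and 0.51, adjusted p = 0.0369). Without quiescent replicate 2 the first was called too (0.78, adjusted p = 0.0132), and without quiescent replicate 1 it was 0.30 (adjusted p = 0.313). After CCl4, Pdgfa was at 0.05 ± 0.18 at 2 weeks and 0.12 ± 0.18 at 4 weeks, neither called.

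Pdgfb and Pdgfc gave no call in any of the 5 comparisons. Pdgfb, the B chain that both receptors bind, stood at 4.84 and 4.63 in culture, 4.71 and 4.69 at 2 weeks, 4.72 and 4.82 at 4 weeks, and 4.73 and 5.0 in quiescent cells. Only 3 of the 8 arrays lay above the background guide of 4.75, so that a fall of Pdgfb was not measurable here rather than absent. A rise of Pdgfb against quiescent cells was not called, with intervals reaching up to 0.22 in culture, 0.18 at 2 weeks and 0.25 at 4 weeks. Its group means spanned 0.16, and its changes against quiescent cells ran from -0.16 ± 0.15 at 2 weeks to -0.09 ± 0.15 at 4 weeks. Markers of platelets, a known source of PDGF-B, were 6 genes with a summed signal of 8.11 to 8.33 in culture, 8.40 to 8.50 at 2 weeks, 8.06 to 8.15 at 4 weeks and 8.04 to 8.58 in quiescent cells. In culture 1 of the 6 was higher and 1 lower than in quiescent cells, beside 12.9% and 10.3% of all genes. Ppbp stood at 6.39 and 7.09 there, against 4.52 and 4.70 in quiescent cells. Only 4 of the 6 had a group mean above the background guide in any group. Pdgfc, which encodes an alpha receptor ligand, stood at 5.39 and 5.41 in culture, 5.43 and 5.47 at 2 weeks, 5.39 and 5.37 at 4 weeks, and 5.18 and 5.46 in quiescent cells. All 8 arrays were above the guide, the group means spanned 0.13, and the interval of the change in culture was -0.25 to 0.40.

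**Figure D3:**
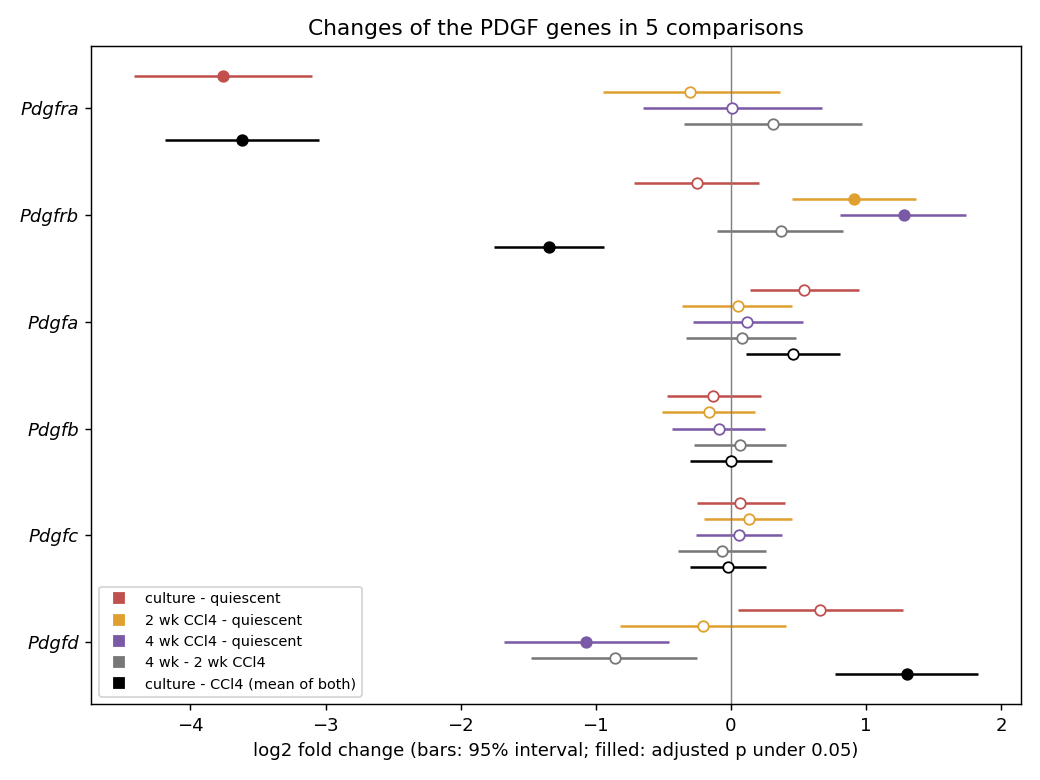
Log2 fold changes of the 6 PDGF genes in 5 comparisons, with 95% intervals from the fit and filled points for an adjusted p under 0.05. The points far from 0 are Pdgfra in culture (-3.76 and -3.62), Pdgfrb after CCl4 (0.91 and 1.28) and in culture against CCl4 (-1.35), and Pdgfd at 4 weeks (-1.07) and in culture against CCl4 (1.30).

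Counted together, the PDGF genes were not called more often than genes in general against quiescent cells in culture. There, 1 of 6 was called, a fall, where 23.2% of all genes were called, 12.9% higher and 10.3% lower. At 2 weeks 1 of 6 was called, a rise, against 4.77% of all genes, 2.34% higher and 2.43% lower. At 4 weeks 2 of 6 were called, 1 in each direction, against 8.71% of all genes, 4.04% higher and 4.67% lower. In culture against CCl4, 1 of 6 was higher and 2 were lower, against 21.3% of all genes called, 12.6% higher and 8.72% lower. At 4 against 2 weeks limma called 0 of 6, with 1, Pdgfd, at an unadjusted p under 0.05, against 0.0857% of all genes, 0.0271% higher and 0.0586% lower. The median change of the 6 was within 0.07 of 0 in every comparison, in each of which at least 3 of the 6 were not called. With so few genes these counts describe the members and carry no test.

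Of 9 measured genes that process the ligands, 2 were higher and 2 lower in culture, 2 and 2 at 2 weeks, and 3 and 2 at 4 weeks. Calls over all genes were 23.2% in culture, 4.77% at 2 weeks and 8.71% at 4 weeks. In culture against CCl4, 1 (Pcsk6) was higher, 1 (Plat) was lower and 7 were not called, beside 21.3% of all genes called. Plat, which encodes the tissue plasminogen activator that cleaves PDGF-C, stood at 6.0 and 6.03 in culture, 10.56 and 10.43 at 2 weeks, 10.81 and 10.70 at 4 weeks, and 6.88 and 7.60 in quiescent cells. Its change was -1.23 ± 0.22 in culture (adjusted p = 0.00319), 3.25 ± 0.22 at 2 weeks (adjusted p = 0.000154) and 3.51 ± 0.22 at 4 weeks (adjusted p = 7.05e-05). The change in culture against CCl4 was -4.61 ± 0.19 (adjusted p = 1.01e-06). Plau, the urokinase gene whose product can activate PDGF-D, rose by a like amount in culture (2.36 ± 0.23), at 2 weeks (2.36 ± 0.23) and at 4 weeks (2.38 ± 0.23). Its levels were 8.09 and 8.54 in culture, 8.22 and 8.41 at 2 weeks, 8.06 and 8.61 at 4 weeks, and 5.77 and 6.15 in quiescent cells. Its receptor gene Plaur rose in culture (3.13 ± 0.47) and at 4 weeks (2.84 ± 0.47), and its 1.99 ± 0.47 at 2 weeks just missed the threshold (adjusted p = 0.051), with the 4-week call ending without 4-week replicate 2 (adjusted p = 0.074).

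Pcsk6, a furin-like convertase, was lower after CCl4 (-1.84 ± 0.20 at 2 weeks and -1.88 ± 0.20 at 4 weeks) and, in culture against CCl4, higher by 1.96 ± 0.17 (adjusted p = 8.06e-05). Its levels were 7.13 and 7.39 in culture, 5.28 and 5.34 at 2 weeks, 5.30 and 5.25 at 4 weeks, and 6.85 and 7.46 in quiescent cells. Plg, the plasminogen gene known from hepatocytes, fell with the hepatocyte markers, with changes of -4.53 ± 0.56 in culture, -2.48 ± 0.56 at 2 weeks and -3.50 ± 0.56 at 4 weeks. The Plg call at 2 weeks ended in 7 of the 8 fits with 1 array left out (adjusted p 0.0646 to 0.275), and that at 4 weeks without either 4-week array (adjusted p 0.0526 and 0.0572).

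Genes of co-receptors and PDGF-binding proteins went both ways. Of 9 measured, 3 rose and 3 fell in culture, and 2 rose and 1 fell at each CCl4 time. The share of all genes called was 23.2% in culture, 4.77% at 2 weeks and 8.71% at 4 weeks. Thbs1, the matrix protein thrombospondin that binds growth factors, rose in culture (2.40 ± 0.16), at 2 weeks (2.48 ± 0.16) and at 4 weeks (3.02 ± 0.16). Its levels were 11.41 and 11.74 in culture, 11.74 and 11.56 at 2 weeks, 12.15 and 12.24 at 4 weeks, and 9.25 and 9.10 in quiescent cells. Lrp1, an endocytic receptor known to associate with the beta receptor, stood at 9.76 and 9.70 in culture, 10.48 and 10.78 at 2 weeks, 11.03 and 10.82 at 4 weeks, and 10.91 and 10.86 in quiescent cells. It fell in culture (-1.15 ± 0.15, adjusted p = 0.000707), and was also lower there than after CCl4 (-1.05 ± 0.13, adjusted p = 0.00062). The co-receptor gene Nrp1, which sinusoidal endothelial cells also express, fell in culture (-1.32 ± 0.16) and was lower there than after CCl4 (-0.85 ± 0.14). Itgb3, an integrin chain that partners PDGF receptors and is also used by platelets and macrophages, fell in all 3 groups, with changes of -2.01 ± 0.40 in culture, -2.83 ± 0.40 at 2 weeks and -2.16 ± 0.40 at 4 weeks. The quiescent pair of Itgb3 was wide, at 10.17 and 8.79, and its calls ended at 2 weeks without 2-week replicate 2 (adjusted p = 0.0514) and at 4 weeks without either 4-week array (adjusted p 0.063 and 0.103). Ext1, a heparan sulphate polymerase, rose by 0.59 ± 0.13 in culture, 0.56 ± 0.13 at 2 weeks and 0.65 ± 0.13 at 4 weeks. Its 2-week call ended in all 8 fits with 1 array left out (adjusted p 0.0768 to 0.158), its 4-week call in 3 (adjusted p 0.0558 to 0.123) and its culture call without culture replicate 1 (adjusted p = 0.0663).

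**Figure D4:**
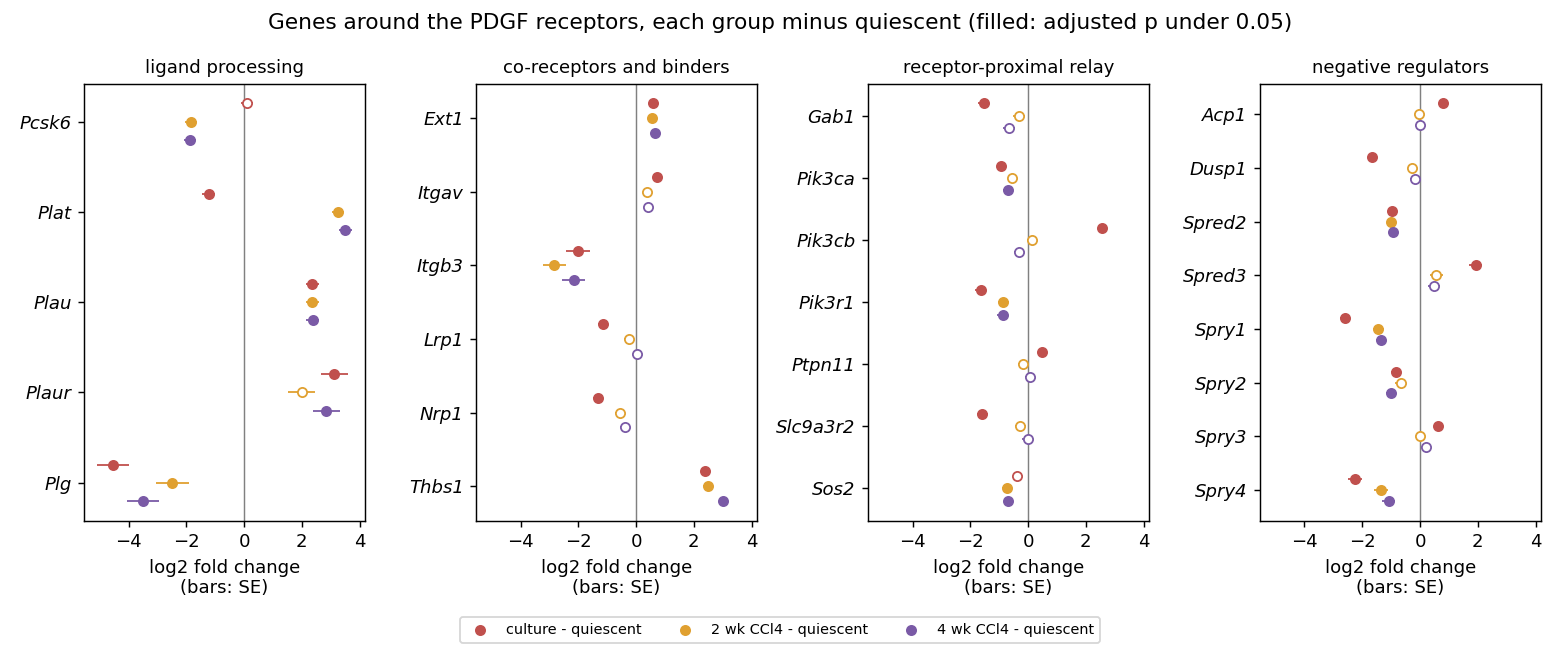
Log2 fold changes ± SE against quiescent cells of genes around the PDGF receptors, in 4 lists, for culture, 2 weeks and 4 weeks of CCl4, with filled points for an adjusted p under 0.05. Plat lies at -1.23 in culture but at 3.25 and 3.51 after CCl4, Plau lies at 2.36 to 2.38 in all 3, and Spry1 lies below 0 in all 3.

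Of 23 genes for adaptors and kinases at the receptor, 2 rose and 4 fell in culture (23.2% of all genes called), 0 rose and 2 fell at 2 weeks (4.77%), and 0 rose and 3 fell at 4 weeks (8.71%), with list medians of -0.11, -0.25 and -0.19. Pik3cb, the beta catalytic subunit of phosphoinositide 3-kinase, stood at 7.90 and 7.95 in culture, 5.57 and 5.42 at 2 weeks, 4.90 and 5.18 at 4 weeks, and 5.35 and 5.38 in quiescent cells. It rose in culture by 2.56 ± 0.15 (adjusted p = 6.83e-06) and was higher there than after CCl4 (2.66 ± 0.13, adjusted p = 2.46e-06). Pik3r1, the regulatory subunit that docks on the phosphorylated receptors, fell in culture (-1.64 ± 0.18), at 2 weeks (-0.85 ± 0.18) and at 4 weeks (-0.88 ± 0.18). Its CCl4 calls ended in 7 and 3 of the 8 fits with 1 array left out (adjusted p 0.0575 to 0.203 and 0.0697 to 0.128). The adaptor gene Gab1 (-1.54 ± 0.20) and Slc9a3r2, a scaffold that binds the tail of PDGF receptors (-1.59 ± 0.19), fell in culture and were lower there than after CCl4 (-1.06 ± 0.18 and -1.45 ± 0.17). In the RAS-ERK, AKT and STAT relay, 10 of 17 listed genes were measured. Of them 2 rose and 1 fell in culture, among them the kinase gene Map2k1 (0.98 ± 0.16) and Stat3 (-0.95 ± 0.21, adjusted p = 0.0702 without culture replicate 2). At each CCl4 time limma called 0 of the 10, with 1 and 3 at an unadjusted p under 0.05 at 2 and 4 weeks.

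Of 19 measured genes that restrain the receptor's signal, 9 fell, 3 rose and 7 were not called in culture, with a list median of -0.60, beside 10.3% of all genes lower and 12.9% higher. At 2 weeks 3 fell and 0 rose (2.43% and 2.34% of all genes), and at 4 weeks 4 fell and 0 rose (4.67% and 4.04%). The list medians at these times were -0.02 and 0.02. Spry1, an inhibitor of receptor tyrosine kinase signalling that is itself induced by it, stood at 7.46 and 6.94 in culture, 8.37 and 8.35 at 2 weeks, 8.46 and 8.42 at 4 weeks, and 9.82 and 9.77 in quiescent cells. Spry1 changed by -2.59 ± 0.18 in culture (adjusted p = 1.58e-05), by -1.44 ± 0.18 at 2 weeks (adjusted p = 0.00353) and by -1.35 ± 0.18 at 4 weeks (adjusted p = 0.00256), and was lower in culture than after CCl4 (-1.20 ± 0.15, adjusted p = 0.000643). Its relative Spry4 fell in culture (-2.26 ± 0.24), at 2 weeks (-1.34 ± 0.24) and at 4 weeks (-1.09 ± 0.24). Each CCl4 call of Spry4 ended in 3 of the 8 fits with 1 array left out, without quiescent replicate 1 or either array of its own time (adjusted p 0.0536 to 0.139 at 2 weeks and 0.0948 to 0.172 at 4 weeks). Spred2, which blocks RAF activation, fell in culture (-0.98 ± 0.13), at 2 weeks (-1.01 ± 0.13) and at 4 weeks (-0.93 ± 0.13). The MAP kinase phosphatase gene Dusp1, also an immediate early gene, fell in culture (-1.66 ± 0.15). The members that rose in culture were Spred3 (1.93 ± 0.22), the phosphatase gene Acp1 (0.81 ± 0.13) and Spry3 (0.62 ± 0.15), the last at group means of 3.91 in culture and 3.29 in quiescent cells, below the background guide. The Spry3 call ended in 3 of the 8 fits with 1 array left out (adjusted p 0.0613 to 0.0969).

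Genes that PDGF or serum is known to induce in fibroblasts split in culture. Of 19 measured, 7 rose and 8 fell in culture, beside 12.9% and 10.3% of all genes. At 2 weeks 3 rose and 1 fell (2.34% and 2.43% of all genes), and at 4 weeks 5 rose and 1 fell (4.04% and 4.67%). Has2, a hyaluronan synthase, stood at 7.31 and 7.54 in culture, 4.77 and 4.99 at 2 weeks, 5.28 and 5.15 at 4 weeks, and 4.32 and 4.30 in quiescent cells. Has2 rose by 3.11 ± 0.15 in culture (adjusted p = 2.62e-06) and by 0.90 ± 0.15 at 4 weeks (adjusted p = 0.00762, and 0.0753 without 4-week replicate 1). The cyclin gene Ccnd1 was at 9.86 and 9.72 in culture, 7.41 and 7.38 at 2 weeks, 7.78 and 7.66 at 4 weeks, and 8.12 and 8.96 in quiescent cells. Cultured cells exceeded quiescent cells by 1.25 ± 0.24 (adjusted p = 0.0052) and CCl4 cells by 2.23 ± 0.21 (adjusted p = 0.000105), and Ccnd1 was lower at 2 weeks than in quiescent cells (-1.14 ± 0.24, adjusted p = 0.0317). That 2-week call ended in 6 of the 8 fits with 1 array left out (adjusted p 0.0576 to 0.176). The collagen crosslinker gene Lox rose in culture (5.75 ± 0.16), at 2 weeks (4.58 ± 0.16) and at 4 weeks (4.20 ± 0.16), and so did the protease inhibitor gene Timp1 (3.67 ± 0.26 in culture, 3.53 ± 0.26 at 2 weeks and 3.75 ± 0.26 at 4 weeks). The chemokine gene Ccl7 rose at 2 weeks (2.03 ± 0.22) and 4 weeks (1.06 ± 0.22), and in culture its -0.60 ± 0.22 was not called. The 4-week call of Ccl7 ended without quiescent replicate 1 or either 4-week array (adjusted p 0.059 to 0.129). F3 also rose in culture (4.91 ± 0.29). The falls in culture with the smallest p were of Fos (-4.74 ± 0.14), Cxcl1 (-5.12 ± 0.23) and the immediate early gene Ier2 (-3.22 ± 0.20). Fos and Cxcl1 were also lower in culture than after CCl4 (-4.63 ± 0.12 and -5.14 ± 0.20).

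Among the nearest relatives of the PDGF genes, the VEGF ligands numbered 5, of which 2 rose and 0 fell in each comparison with quiescent cells. Of all genes, 12.9% rose in culture, 2.34% at 2 weeks and 4.04% at 4 weeks. Vegfa was among the rises each time, at 2.65 ± 0.19 in culture, 1.26 ± 0.19 at 2 weeks and 1.63 ± 0.19 at 4 weeks. The 2-week call of Vegfa ended without either 2-week array (changes of 1.29 and 1.23). Pgf, the placental growth factor gene, rose in culture (1.79 ± 0.14) and was higher there than after CCl4 (1.63 ± 0.12). Its group mean was 5.38 in culture. The means of 3.59 in quiescent cells, 3.73 at 2 weeks and 3.79 at 4 weeks lay below the background guide, so the size of these differences is uncertain. Vegfd rose at 2 weeks (3.33 ± 0.43) and 4 weeks (1.78 ± 0.43), the 4-week call ending in 5 of the 8 fits with 1 array left out (adjusted p 0.0675 to 0.179). Of 9 related receptors and ligands, 2 rose and 6 fell in culture, 0 rose and 3 fell at 2 weeks, and 0 rose and 6 fell at 4 weeks. The share of all genes that fell was 10.3% in culture, 2.43% at 2 weeks and 4.67% at 4 weeks. The ligand gene Il34 fell each time, with changes of -3.37 ± 0.17 in culture, -1.68 ± 0.17 at 2 weeks and -1.42 ± 0.17 at 4 weeks. Those that fell in culture and at 4 weeks included Kdr, known from endothelial cells, and Csf1r, known from macrophages, and the part of these cells was not tested. The rises in culture were of the ligand genes Csf1 (2.23 ± 0.15) and Kitl, and both were also higher there than after CCl4, Csf1 by 2.24 ± 0.13. Kitl, the ligand of the KIT receptor, was 2.11 ± 0.17 above CCl4 in culture (adjusted p = 5.17e-05), lower at 4 weeks than in quiescent cells (-1.47 ± 0.20, adjusted p = 0.00305) and higher in culture than in quiescent cells (0.94 ± 0.20, adjusted p = 0.0088, and 0.069 without culture replicate 1).

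The genes with profiles most like those of the 3 members that varied by at least 1 log2 unit between group means were sought among 3499 other genes that varied as much. Likeness was the root mean square difference between mean-centred log2 values over the 8 arrays, given as a description. Nearest to Pdgfra were Smoc2 (0.30), C1qtnf1 (0.31) and Igfbp4 (0.33), which encode secreted proteins. Smoc2 stood at 4.95 and 4.55 in culture, 8.51 and 8.91 at 2 weeks, 8.99 and 8.69 at 4 weeks, and 9.11 and 9.27 in quiescent cells. Nearest to Pdgfrb were Kirrel, Akap6 and Mylk (0.14 each). Mylk, the myosin light chain kinase of contractile cells, stood at 7.43 and 7.09 in culture, 8.27 and 8.46 at 2 weeks, 8.87 and 8.56 at 4 weeks, and 7.04 and 7.95 in quiescent cells. Nearest to Pdgfd were Prelid2 (0.21), Dnajc9 (0.22) and Fbxo25 (0.24). The receptor genes were far from each other on this measure (1.31), and so were Pdgfd and Pdgfrb (1.24).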

How the data were processed

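Affymetrix arrays of preamplified, biotin-labelled RNA measured transcripts in 8 samples, 2 in each of 4 groups. The authors deposited log2 values per probe set, and the submitters' processing notes name RMA and the Affymetrix Expression Console. No version of either is given in the sources used here. RMA puts all arrays on 1 distribution, which would hide a shift common to most genes. The median of an array was 4.63 to 4.72 over 41345 probe sets, and no further normalization was applied. Precision is limited by the 2 arrays per group.

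The platform table gave 1 symbol to 23521 probe sets, several to 1814 and none to 16010. Genes with several probe sets (1082) were represented by their probe set of highest mean level, leaving 22180 genes. Differences were tested, two-sided, with limma 3.58.1 in R 4.3.3 (lmFit and eBayes without trend or robust options), with 4 residual and 4.75 prior degrees of freedom, and the code was checked on simulated data. The 5 comparisons were culture, 2-week and 4-week CCl4 against quiescent cells, 4-week over 2-week CCl4, and cultured cells against the 2 CCl4 groups averaged. Genes named from each of the 8 lists of related genes were among the up to 3 called members per direction with the smallest p in a comparison. Not all such genes are described, and 10 marker lists were summarised. Members, lists, motifs and the background guide were chosen with earlier results of these data known. Alternatives covered the probe set rule, a filter on dim genes, all probe sets, the variance prior, 2 normalizations, separate fits, a replicate block and leaving out each array. The titles give each group replicates 1 and 2, but same-numbered arrays did not deviate together (correlations of deviations across genes of -0.042 to 0.074), so the main fit has no block. An exact permutation test was not used, since groups of 2 are too small for one. RefSeq promoter windows are of GRCm38.p6, and no source used here gives the build behind the array.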

Additional observations from a re-analysis of the deposited data

Results flagged for a closer look

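Changes of 3 PDGF genes differed between the forms of activation, by limma's direct test of culture against the 2 CCl4 groups averaged, with n = 2 arrays in culture and 4 after CCl4. Pdgfra was lower in culture by -3.62 ± 0.25 (adjusted p = 1.8e-05), with group means of 6.91 in culture and 10.53 after CCl4. Pdgfrb was lower in culture by -1.35 ± 0.18 (adjusted p = 0.000739), with means of 9.68 in culture and 11.03 after CCl4. Pdgfd was higher in culture by 1.30 ± 0.23 (adjusted p = 0.00402), with means of 6.99 in culture and 5.69 after CCl4. In each case both cultured arrays lay on 1 side of all 4 CCl4 arrays. Of all genes, 21.3% were called in this comparison.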

How the results depend on the processing

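Leaving out 1 array at a time, filtering dim genes, testing all probe sets, another variance prior, re-centring, a second quantile normalization, a replicate block and fits of only the groups compared were tried. The calls of Pdgfra and Pdgfrb in culture against CCl4, of Pdgfd in culture against CCl4 and of Pdgfra in culture against quiescent cells kept their direction and call under all of them. Apart from leaving out arrays, 1244 recomputed log2 changes of the PDGF genes and named related genes kept direction and call, 51 lost the call, 5 gained it and 3 reversed. Of the list counts, 343 stayed within 1.5 times and 17 did not. Causes were not tested, save that tests over all probe sets adjust over more tests and fits of only the groups compared have fewer arrays. Pdgfb, along the background guide, is limited by its signal.

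Pdgfa in culture against quiescent cells passed the threshold with dim genes left out (0.54, adjusted p = 0.0475), re-centred arrays (0.63, adjusted p = 0.0256) and the replicate block (0.54, adjusted p = 0.0427), so that 2 PDGF genes were then called. Against CCl4 it passed with re-centred arrays (0.51, adjusted p = 0.0369) and in a fit of only those groups (0.46, adjusted p = 0.0285). Pdgfrb at 2 weeks (0.91) lost its call over all probe sets (adjusted p = 0.126), in a fit of only those groups (adjusted p = 0.135) and with the replicate block (adjusted p = 0.055), which left 0 PDGF genes called. Pdgfd at 4 weeks lost its call over all probe sets (-1.07, adjusted p = 0.12), after quantile normalization (-1.02, adjusted p = 0.0599), in a fit of only those groups (-1.07, adjusted p = 0.108) and with the replicate block (-1.07, adjusted p = 0.0649), which left 1. Values near 0 changed sign for Pdgfra at 4 weeks (-0.04 after quantile normalization) and Pdgfc in culture against CCl4 (0.03 re-centred, 0.02 after quantile normalization). All genes called at 2 weeks, 1058 in the fit reported, numbered 441 over all probe sets and 372 in a fit of only those groups. At 4 weeks they numbered 1932, and 1205 in a fit of only those groups. At 4 against 2 weeks 19 became 0 over all probe sets, 82 in a fit of only those groups and 9 with the replicate block. The block used numbers that do not pair the arrays, so a call lost under it is no weaker effect.

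With 1 array left out, all genes called ranged from 3505 to 4962 in culture, 260 to 1430 at 2 weeks, 652 to 2113 at 4 weeks, 0 to 85 at 4 against 2 weeks and 2846 to 5225 in culture against CCl4. PDGF genes called ranged from 1 to 2 in culture, from 0 to 1 at 2 weeks and from 3 to 4 in culture against CCl4, and were 1 at 4 weeks and 0 at 4 against 2 weeks in every such fit. The gene called at 4 weeks was Pdgfd without 4-week replicate 1 and Pdgfrb in every other such fit, so these genes were never called together there. Pdgfra at 4 weeks ranged from -0.21 to 0.23. Pdgfrb ranged from -0.55 to 0.05 in culture, 0.61 to 1.21 at 2 weeks and 0.97 to 1.58 at 4 weeks. Pdgfa ranged from 0.30 to 0.78 in culture, -0.19 to 0.28 at 2 weeks, -0.11 to 0.36 at 4 weeks, -0.03 to 0.18 at 4 against 2 weeks and 0.40 to 0.51 in culture against CCl4. Pdgfb ranged from -0.26 to 0.01 in culture, -0.23 to 0.04 at 4 weeks and -0.10 to 0.10 in culture against CCl4. Pdgfc ranged from -0.06 to 0.21 in culture, -0.01 to 0.26 at 2 weeks and -0.08 to 0.20 at 4 weeks. Pdgfd at 4 weeks ranged from -1.49 to -0.66.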
